A study of Mus musculus with 9 samples.

Results

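The genes analysed here encode the sensors, the adaptor, the caspases and the pore protein of the inflammasome, a cytosolic complex that releases IL-1β and can kill the cell. They are 10 genes: Nlrp3, Nlrc4, Nlrp1b, Aim2, Mefv, Pycard, Casp1, Casp4, Gsdmd and P2rx7. They were chosen by symbol, and a gene was represented by its brightest probe set (a group of probes for 1 transcript) among those carrying that symbol alone. All 10 were measured, out of 22180 genes with a probe set of their own and 34365 probe sets in all. Macrophages had been sorted as CD45+, CD11b+ and F4/80+ cells from the colonic lamina propria of 9 female, co-housed mice of the C57BL/6 strain with dextran sodium sulfate (DSS) colitis, and RNA of each mouse was put on 1 Affymetrix Mouse Gene array. DSS, which injures the colonic epithelium, was given at 3% in the drinking water for 5 days, and cells were collected on Day 8 after 3 days of plain water. The groups were 5 LysMCre mice, with intact Arnt, and 4 LysMCre;Arntfl/fl mice, in which Cre removes floxed Arnt. The floxed Arnt line had a mixed background of C57BL/6 and another strain. It was backcrossed to C57BL/6 before the cross with LysMCre, and the paper does not give the number of backcrosses. Whether sequence of the other strain remained in these mice was not tested. Both genotypes carried LysMCre and received DSS, and no source used here gives the ages of the mice. Cre under LysM is active in several myeloid cell types, neutrophils among them, and not to the same extent at each stage, so the sorted cells need not all have lost Arnt. No mice without DSS and no Cre-negative mice were part of these arrays.

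An inflammasome forms when a sensor of the NLR or AIM2 type, or pyrin, detects a microbial product or cell damage and gathers the adaptor ASC, which in turn gathers caspase-1. Caspase-1 cuts the precursors of IL-1β and IL-18 and also gasdermin D, whose freed end forms pores in the plasma membrane and leads to the lytic death called pyroptosis. In mice caspase-11, the product of Casp4, binds bacterial lipopolysaccharide in the cytosol and cuts gasdermin D itself, which is called the non-canonical pathway. Colonic macrophages meet bacteria and their products when the epithelium is injured, and Nlrp3 and Il1b are known to be induced by Toll-like receptor signals. ARNT is the shared partner of the hypoxia-inducible factors HIF-1α and HIF-2α and of the aryl hydrocarbon receptor. The comparison sets the transcripts of this machinery in macrophages of mice with deleted myeloid Arnt against those of mice with intact Arnt. The arrays measured RNA only, and neither assembly of inflammasomes nor cleavage of their substrates.

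HIF dimers with ARNT bind sites with the core letters ACGTG, and dimers of ARNT with the aryl hydrocarbon receptor bind sites with the core GCGTG. Each core was searched on both strands of the RefSeq promoter windows of GRCm38.p6, which run from 250 bases before to 50 after a transcript start. Of the 10 genes 9 matched an entry, with 13 windows. ACGTG was found in 2 of the 13 windows against 19.6% of 32851 windows of the genome, and GCGTG in 1 of 13 against 32.4%. Either core was in 3 of 13 windows, those of Nlrp3, Casp1 and Mefv, against 43.8% of all windows. These 3 windows are shown because they are the ones with a core, and the Aim2 window is shown because Aim2 had the lowest p of the 10 genes and its window held no core. Capitals mark the core on either strand, and in Casp1 they mark the palindrome CACGTG, which holds the core on both strands. The windows are chr11:59541319-59541618 on the plus strand for Nlrp3 (the upstream one of its starts), chr9:5298267-5298566 plus for Casp1, chr16:3718075-3718374 minus for Mefv and chr1:173420354-173420653 plus for Aim2.
Nlrp3: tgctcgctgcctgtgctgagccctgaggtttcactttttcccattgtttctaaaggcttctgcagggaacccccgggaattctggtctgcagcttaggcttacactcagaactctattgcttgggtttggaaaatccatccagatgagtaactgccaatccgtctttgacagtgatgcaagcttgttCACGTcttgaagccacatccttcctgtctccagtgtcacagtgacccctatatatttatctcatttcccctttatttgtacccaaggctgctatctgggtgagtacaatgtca
Casp1: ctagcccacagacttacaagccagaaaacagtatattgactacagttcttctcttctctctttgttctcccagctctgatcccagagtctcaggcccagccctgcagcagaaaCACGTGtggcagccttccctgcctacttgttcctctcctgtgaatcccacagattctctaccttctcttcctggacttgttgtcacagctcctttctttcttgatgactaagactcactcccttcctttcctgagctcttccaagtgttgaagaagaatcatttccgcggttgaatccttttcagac
Mefv: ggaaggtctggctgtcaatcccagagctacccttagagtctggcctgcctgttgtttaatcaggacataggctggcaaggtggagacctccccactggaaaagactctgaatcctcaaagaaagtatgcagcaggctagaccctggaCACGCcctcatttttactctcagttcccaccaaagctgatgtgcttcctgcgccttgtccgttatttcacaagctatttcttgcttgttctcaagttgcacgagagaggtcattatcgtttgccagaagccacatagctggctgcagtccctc
Aim2: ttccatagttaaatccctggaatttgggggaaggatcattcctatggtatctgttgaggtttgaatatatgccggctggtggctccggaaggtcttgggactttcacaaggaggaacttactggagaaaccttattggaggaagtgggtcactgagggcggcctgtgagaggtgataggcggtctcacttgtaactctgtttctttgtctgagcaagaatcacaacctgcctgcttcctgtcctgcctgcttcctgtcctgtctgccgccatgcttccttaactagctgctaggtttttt
The core began 63 bases before the start in Nlrp3, 137 in Casp1 and 103 in Mefv. Of the genes with a core, Nlrp3 and Casp1 lay within 0.08 of LysMCre on the log2 scale and Mefv was 0.40 higher, with no call for any of them, as given below. The NF-κB type letters GGACTTTCC and GGAATTTCC were in 0.344% and 0.317% of all windows and in 0 of the 13. A match of letters is not a bound site, and a window without them says nothing on the factor.

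The arrays matched the label of the targeted gene: Arnt was 9.31 to 9.54 in LysMCre and 8.60 to 8.84 in LysMCre;Arntfl/fl macrophages on the log2 scale of the deposited values (log2 fold change -0.66 with a standard error of 0.09 and an adjusted p of 0.0214 in limma). Macrophage markers were present on every array, with Adgre1, which encodes F4/80, at a mean of 11.09 in LysMCre and 10.94 in LysMCre;Arntfl/fl macrophages. The mean of 14 macrophage markers was 10.82 to 11.19 in LysMCre and 10.69 to 11.02 in LysMCre;Arntfl/fl arrays, and none of them was called. At an unadjusted p below 0.05, 5 of the 14 were lower (Cx3cr1 at -0.83 on the log2 scale without overlap, C1qa, C1qb, C1qc and Mrc1) and 2 higher (Itgam at 0.44 without overlap, and Lyz2). Neutrophil markers differed between the groups. The mean of 12 neutrophil markers lay at 7.97 to 9.40 in LysMCre and 9.66 to 10.44 in LysMCre;Arntfl/fl arrays, 12 of 12 had a positive log2 fold change, and Ngp, a neutrophil granule gene, was called (3.45, adjusted p = 0.0330 from limma). The mean of 8 epithelial markers ranged from 7.68 to 10.45 within LysMCre and from 8.94 to 9.80 within LysMCre;Arntfl/fl arrays. Monocyte markers had means of 8.50 to 9.50 and 9.43 to 9.80. In sorted bulk cells fewer cells of a type and less RNA per cell cannot be told apart. Neutrophils also express several inflammasome genes, and many results below are also given from the fit that holds the mean of the neutrophil markers as a covariate. That mean did not overlap between the genotypes, so this fit separates it poorly from genotype. Its values are therefore a description and not a correction for neutrophil content. The part of these markers in the results was not tested further.

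No gene of the 10 was called in either direction. For a call the adjusted p had to be below 0.05 and the fold beyond 1.5, and 0.294% of all probe sets met both, so 0 of 10 was near the background. A SAM-type score and an unpaired test of each gene also called 0. Log2 fold changes of LysMCre;Arntfl/fl over LysMCre macrophages were positive for 7 genes and negative for 3, from -0.59 for Nlrp1b to 0.40 for Mefv, with a median of 0.06 against 0.01 over all probe sets. At an unadjusted p below 0.05 stood 3 of 10 (Nlrp1b, Aim2 and Mefv), against 11.5% of all probe sets. The same 3 genes were beyond 1.2-fold, against 14.6% of all probe sets. The values of the genotypes did not overlap for 2 of 10 genes, Nlrp1b and Aim2, both lower in LysMCre;Arntfl/fl, where 4.73% of all probe sets did not overlap in either direction and 2.22% did not overlap and were lower. The plot of the values by array shows that the separation was narrow for Nlrp1b and that 7 of the 10 genes lay within 1.2-fold.

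**Figure D1:**
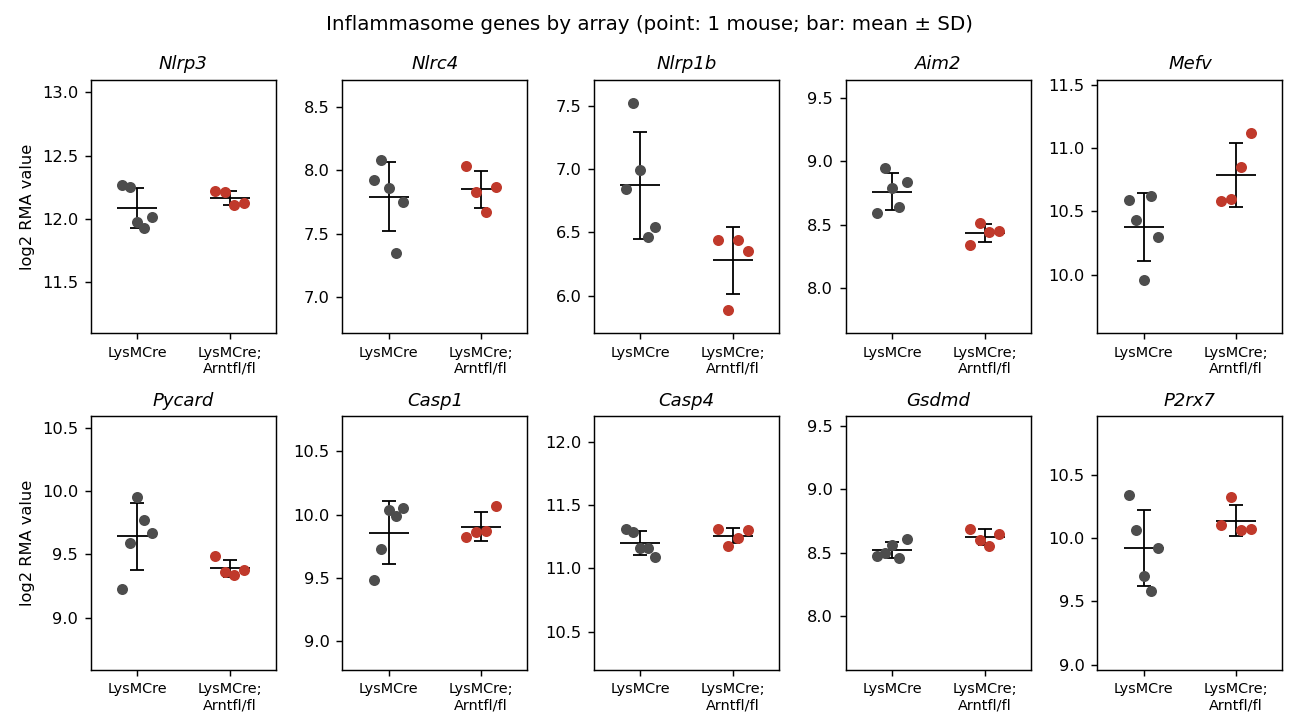
Log2 values of the 10 genes on each array, LysMCre (grey, n = 5) and LysMCre;Arntfl/fl (red, n = 4), with 1 point per mouse and the mean ± SD as bars. Every panel spans the same height on the log2 scale, and the groups are apart for Nlrp1b and Aim2 and overlap for the other 8 genes.

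Among the sensors, Nlrp3 RNA differed between the genotypes by less than its spread between mice. NLRP3 responds to potassium efflux and many other signs of cell damage. Its log2 values were 12.27, 12.25, 11.98, 11.93 and 12.02 in LysMCre replicates 1 to 5 and 12.22, 12.21, 12.11 and 12.13 in LysMCre;Arntfl/fl replicates 1 to 4. All 4 values of the second group fell inside the range of the first. The fitted log2 fold change was 0.08 with a standard error of 0.09 (adjusted p = 0.835 from limma), and its 95% interval reached from -0.13 to 0.29, that is from 0.913-fold to 1.22-fold. Nlrc4, which with NAIP proteins detects flagellin and parts of bacterial secretion systems, was 7.92, 8.08, 7.86, 7.35 and 7.75 in LysMCre and 8.03, 7.83, 7.67 and 7.87 in LysMCre;Arntfl/fl macrophages. Its lowest array was LysMCre replicate 4, and the other 8 lay between 7.67 and 8.08. Its log2 fold change was 0.06 with an interval of -0.25 to 0.37 (adjusted p = 0.922 from limma). With the neutrophil markers as a covariate it was 0.60, with an interval of 0.21 to 0.98 and an adjusted p of 0.455, and that of Nlrp3 was 0.33 (-0.01 to 0.67).

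Nlrp1b had the largest difference of the 10 genes. NLRP1B is a sensor that, in susceptible mouse strains, is cut and thereby activated by anthrax lethal factor. Its values were 6.84, 7.52, 6.99, 6.46 and 6.54 in LysMCre and 6.44, 5.89, 6.44 and 6.35 in LysMCre;Arntfl/fl macrophages. The groups did not overlap, but 0.02 lay between LysMCre replicate 4 and the highest values of LysMCre;Arntfl/fl, and the SD was 0.42 in LysMCre and 0.26 in LysMCre;Arntfl/fl. The level was 1.51-fold lower (log2 fold change -0.59, standard error 0.21, 95% interval -1.05 to -0.13) with an unadjusted p of 0.0160 and an adjusted p of 0.280 from limma. Without 1 array it ranged from -0.69 to -0.43, and with the neutrophil markers as a covariate it was -0.07 (-0.83 to 0.70). The neighbouring paralog Nlrp1a, listed among the other sensors, was negative as well (-0.36, adjusted p = 0.362 from limma) and turned to 0.11 under that covariate. Probes for such similar genes may take up each other's transcripts, which could not be checked here.

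Aim2 had the lowest p of the 10 genes. AIM2 binds double-stranded DNA in the cytosol and is induced by interferons. Aim2 values were 8.59, 8.95, 8.79, 8.64 and 8.84 in LysMCre and 8.34, 8.51, 8.44 and 8.45 in LysMCre;Arntfl/fl macrophages. All 4 LysMCre;Arntfl/fl values lay below all 5 LysMCre values, with a gap of 0.08. The level was 1.26-fold lower (log2 fold change -0.33, standard error 0.09, interval -0.53 to -0.12) with an unadjusted p of 0.00501 and an adjusted p of 0.176 from limma. Leaving out 1 array gave -0.37 to -0.28, and the neutrophil covariate gave -0.26 (-0.65 to 0.14). Aim2 is the neighbour of Ifi206, in the cluster of interferon-inducible genes that also holds Ifi204 and Ifi205, which were at 0.01 (adjusted p = 0.990 from limma) and -0.17 (adjusted p = 0.667) on the log2 scale.

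Mefv was the one gene of the 10 with a higher value beyond 1.2-fold. It encodes pyrin, which senses the inactivation of RhoA by bacterial toxins, is abundant in neutrophils as well as monocytes, and is mutated in familial Mediterranean fever. Its values were 10.59, 10.43, 9.96, 10.62 and 10.30 in LysMCre and 10.58, 10.60, 10.85 and 11.12 in LysMCre;Arntfl/fl macrophages. LysMCre;Arntfl/fl replicates 3 and 4 were above all LysMCre arrays and the other 2 were not. The same 2 arrays had the highest means of the neutrophil markers, 10.44 and 10.32. Over the 9 arrays, after removal of the genotype means, Mefv correlated with the neutrophil markers at r = 0.46 and with the B cell markers at -0.68. The part of other cells in the Mefv values was not tested. The level was 1.32-fold higher (0.40 on the log2 scale, standard error 0.16, interval 0.06 to 0.75), with an unadjusted p of 0.0253 and an adjusted p of 0.336 from limma. With the neutrophil covariate the log2 fold change was 0.08 (-0.53 to 0.68).

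Pycard encodes ASC, the adaptor that joins most sensors to caspase-1. Its values were 9.23, 9.59, 9.95, 9.77 and 9.67 in LysMCre and 9.49, 9.36, 9.34 and 9.38 in LysMCre;Arntfl/fl macrophages. The lowest array of all 9 was LysMCre replicate 1, while the other 4 LysMCre arrays were above every LysMCre;Arntfl/fl array. On the log2 scale the difference was -0.25 (standard error 0.13, interval -0.53 to 0.04, unadjusted p = 0.0837 and adjusted p = 0.518 from limma). Without LysMCre replicate 1 it was -0.35, beyond 1.2-fold, with an adjusted p of 0.189. With the neutrophil covariate the difference was -0.36 (-0.91 to 0.18).

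The caspase and gasdermin genes differed little between the genotypes. Casp1, which encodes the protease at the centre of the canonical pathway, was 9.48, 9.73, 10.04, 9.99 and 10.05 in LysMCre and 9.82, 9.86, 9.87 and 10.07 in LysMCre;Arntfl/fl macrophages. The 2 lowest values were LysMCre replicates 1 and 2, and the other 7 arrays lay between 9.82 and 10.07. Casp1 had a log2 fold change of 0.05 (interval -0.24 to 0.33, adjusted p = 0.937 from limma), and it was -0.27 (-0.75 to 0.20) with the neutrophil covariate and -0.05 without LysMCre replicate 1. Casp4 was 11.31, 11.29, 11.16, 11.16 and 11.09 in LysMCre and 11.31, 11.18, 11.24 and 11.30 in LysMCre;Arntfl/fl macrophages, a range of little more than 0.2 over all arrays. Its log2 fold change was 0.06 (interval -0.12 to 0.23, adjusted p = 0.865 from limma), and 0.17 (-0.16 to 0.49) with the neutrophil covariate. Casp1, Casp4 and Casp12 lie next to each other, and Casp12, with values of 4.78 to 6.12, was at -0.49 on the log2 scale (adjusted p = 0.387 from limma), or -0.06 (-0.87 to 0.74) with the neutrophil covariate.

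Gsdmd, which encodes the pore protein gasdermin D, was 8.47, 8.50, 8.56, 8.46 and 8.61 in LysMCre and 8.69, 8.60, 8.55 and 8.65 in LysMCre;Arntfl/fl macrophages. LysMCre;Arntfl/fl replicates 1 and 4 exceeded all LysMCre arrays, by less than 0.1. The log2 fold change was 0.10 (standard error 0.07, interval -0.06 to 0.27, adjusted p = 0.684 from limma), and 0.12 (-0.20 to 0.44) with the neutrophil covariate. Gsdmd had another probe set, at 6.34 to 6.76, with a log2 fold change of -0.02 (adjusted p = 0.972 from limma). For Nlrp3, Nlrc4, Casp1, Casp4 and Gsdmd together, the largest log2 fold change was 0.10, and their intervals stayed between -0.25 and 0.37. P2rx7 encodes the ATP-gated channel whose opening lets potassium leave the cell and is a classic trigger of NLRP3. P2rx7 was 10.34, 10.06, 9.70, 9.58 and 9.92 in LysMCre and 10.10, 10.32, 10.06 and 10.07 in LysMCre;Arntfl/fl macrophages. LysMCre replicates 3 to 5 were the 3 lowest arrays. The log2 fold change was 0.22 (standard error 0.15, interval -0.11 to 0.54, adjusted p = 0.641 from limma), and 0.62 (0.10 to 1.15, adjusted p = 0.550) with the neutrophil covariate.

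**Figure D2:**
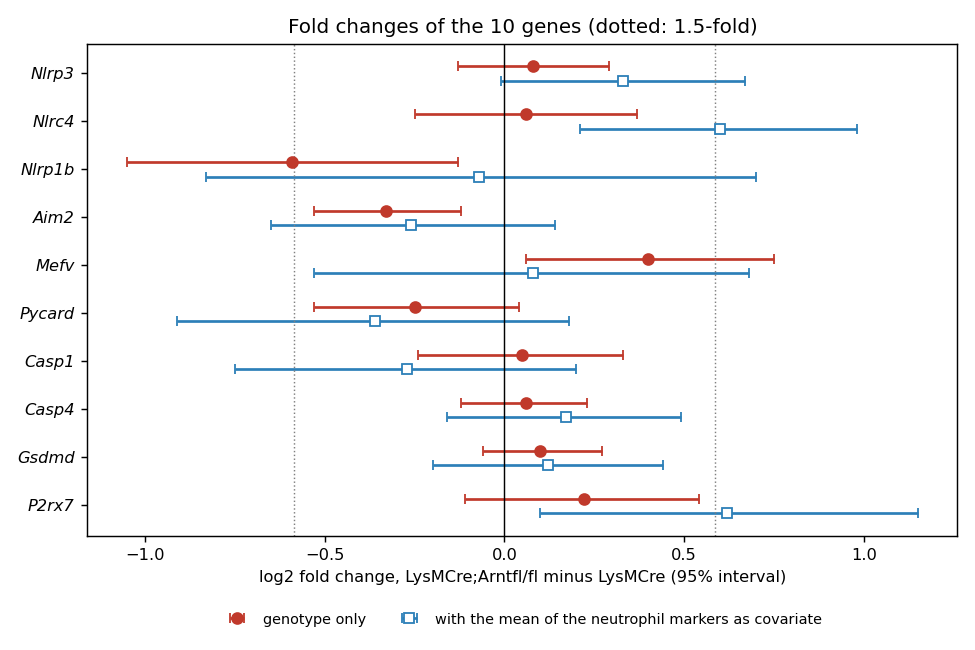
Log2 fold changes of LysMCre;Arntfl/fl over LysMCre macrophages (x axis) for the 10 genes, with the 95% interval of the limma fit, with genotype only (red circles) and with the mean of the neutrophil markers as a covariate (blue open squares). With genotype only, the intervals of Nlrp1b, Aim2 and Mefv exclude 0, and with the covariate those of Nlrc4 and P2rx7 do, while no adjusted p of the 10 genes passed in either fit (lowest 0.176 and 0.455).

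Within the LysMCre group Nlrp3, P2rx7, Casp1 and Pycard spread between mice by more than the genotype means differed, and they moved with the markers of other cells, most with the epithelial ones. LysMCre replicates 1 and 2 had the lowest means of the epithelial markers, 7.83 and 7.68, and replicates 3 and 4 the highest, 10.10 and 10.45, with replicate 5 at 9.11. Nlrp3 and P2rx7 were highest in replicates 1 and 2, and lowest in replicates 3 and 4. Casp1 was lowest in replicates 1 and 2, and Pycard was lowest in replicates 1 and 2 and highest in 3 and 4. LysMCre;Arntfl/fl arrays had epithelial means of 9.42, 8.94, 9.03 and 9.80, and their 4 values of Nlrp3 spanned 12.11 to 12.22. After removal of the genotype means, Nlrp3 and P2rx7 were the pair of the 10 genes most alike over the 9 arrays (Pearson r = 0.89, Spearman rho = 0.83). Without the 2 arrays farthest from the median of Nlrp3 r was 0.83, and without the 2 farthest from that of P2rx7 it was 0.77. Pycard and Casp1 followed with r = 0.80 and rho = 0.63. Their r was 0.35 without the 2 arrays farthest from the median of Pycard and 0.62 without the 2 farthest from that of Casp1. Nlrp3 and Nlrc4 gave r = 0.77. Of all 45 pairs 24 were above 0, with a median of 0.08 and a range of -0.86 to 0.89. After the same removal, Nlrp3 correlated with the mean of the epithelial markers at r = -0.91, of the eosinophil markers at -0.82 and of the neutrophil markers at -0.75. The values were -0.90, -0.67 and -0.61 for P2rx7, 0.80, 0.60 and 0.58 for Casp1, and 0.77, 0.31 and 0.20 for Pycard. Nlrp3 correlated with the macrophage markers at 0.66. Not all of the 10 genes moved most with the epithelial markers. Nlrc4 was at -0.64 with these, -0.90 with the eosinophil and -0.86 with the neutrophil markers, and Nlrp1b and Aim2 were each at -0.73 with the monocyte markers. These correlations are descriptions over arrays that share their content of other cells, and the part of that RNA in them was not tested.

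**Figure D3:**
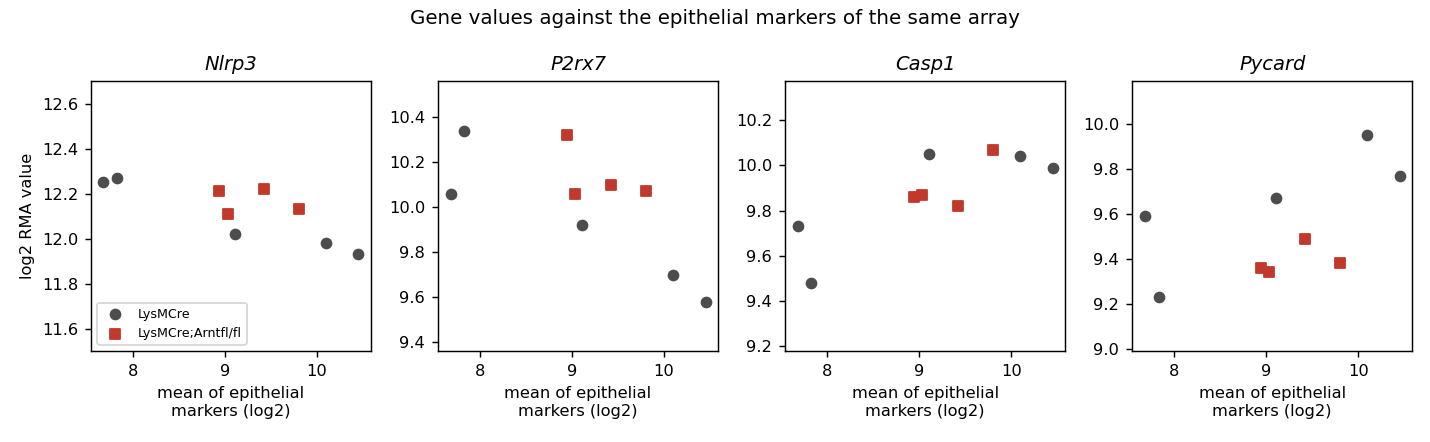
Log2 values of Nlrp3, P2rx7, Casp1 and Pycard (y axes) against the mean log2 value of 8 epithelial markers on the same array (x axes), for LysMCre (grey circles, n = 5) and LysMCre;Arntfl/fl (red squares, n = 4). Among the LysMCre arrays, Nlrp3 and P2rx7 are highest and Casp1 is lowest on the 2 with epithelial means of 7.83 and 7.68.

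Around these 10 genes, 81 genes of the pathway were listed in 6 groups by role, and 71 of them had a probe set of their own. Limma called 1 of the 71, Gbp2b, as lower, against 0.294% of all probe sets called and 0.151% called lower. Their groups did not overlap for 15 of 71, 5 higher and 10 lower, against 2.52% of all probe sets higher and 2.22% lower. Of 14 other sensors 11 were positive and 3 negative (median 0.11), and none was called. Nod1, which encodes a receptor for fragments of bacterial cell wall, was 9.39, 9.44, 8.80, 9.26 and 9.39 in LysMCre and 9.72, 9.77, 9.98 and 10.10 in LysMCre;Arntfl/fl macrophages. The groups did not overlap, and the log2 fold change was 0.64 (with a standard error of 0.14 and an adjusted p of 0.0912 in limma), or 0.44 with the neutrophil covariate. Naip2, a partner of NLRC4, was at 0.51 on the log2 scale (adjusted p = 0.167 from limma) with 3 of 4 LysMCre;Arntfl/fl arrays above all LysMCre arrays, and 0.13 with the neutrophil covariate. Nlrp6, a sensor best known from epithelium, ranged from 4.24 to 6.10 with a log2 fold change of 0.29 and an interval of -0.54 to 1.13, or -0.41 (-1.91 to 1.09) with the neutrophil covariate.

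For the substrates of the pathway no difference passed the test. Il1b was among the highest signals, at 13.47, 13.45, 13.36, 13.52 and 13.35 in LysMCre and 13.37, 13.38, 13.37 and 13.46 in LysMCre;Arntfl/fl macrophages. The log2 fold change was -0.03 with an interval of -0.20 to 0.13 (adjusted p = 0.918 from limma). Il18 was at -0.07 (-0.34 to 0.21), or -0.21 with the neutrophil covariate, and Il1a, whose product is released with IL-1β but is not itself a typical substrate of caspase-1, was at 0.11 (-0.10 to 0.32). Of 7 other caspase, gasdermin and pore genes 3 were positive and 4 negative (median -0.07), with none called. Gsdma, another gasdermin gene, had low values of 4.11 to 5.32 and a difference of -0.64 (adjusted p = 0.145 from limma), which was -1.35 with the neutrophil covariate (adjusted p = 0.161). Casp8, whose protease can also cut gasdermin D, was at -0.13 (-0.34 to 0.08), or -0.22 with the neutrophil covariate, and Ninj1, which drives the final rupture of the membrane, was at 0.13 (-0.12 to 0.39).

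Of 16 genes acting upstream of NLRP3 9 were positive and 7 negative (median 0.12), with none called. Panx1 came nearest to a call. It encodes the pannexin channel that lets ATP, the ligand of P2X7, out of cells. Its values were 9.24, 9.24, 9.19, 9.24 and 9.30 in LysMCre and 8.85, 8.66, 8.95 and 8.75 in LysMCre;Arntfl/fl macrophages. The LysMCre arrays lay within about 0.1 of each other, and all 4 LysMCre;Arntfl/fl arrays were lower with a gap of 0.24. Panx1 was 1.35-fold lower (log2 fold change -0.44, standard error 0.08, interval -0.62 to -0.26, adjusted p = 0.0562 from limma), and the log2 fold change was -0.53 (-0.87 to -0.19) with the neutrophil covariate and -0.49 to -0.39 without 1 array. Myd88, the adaptor of Toll-like and IL-1 receptors, was 10.72, 10.50, 10.30, 10.61 and 10.58 in LysMCre and 10.86, 10.73, 10.92 and 11.10 in LysMCre;Arntfl/fl macrophages. Its groups were 0.01 apart, with a log2 fold change of 0.36 (adjusted p = 0.196 from limma), or 0.18 with the neutrophil covariate. P2rx4, which encodes another ATP-gated channel and lies beside P2rx7, was 11.04 to 11.11 in LysMCre;Arntfl/fl and 11.15 to 11.53 in LysMCre macrophages (log2 fold change -0.30, adjusted p = 0.237 from limma). Its difference was thus of the sign opposite to that of P2rx7, and neither was called.

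The group listed for the sensing of cytosolic lipopolysaccharide also holds genes that do not encode sensors, such as Cd14 and Ticam1. In LysMCre;Arntfl/fl macrophages 10 of its 13 genes were negative and 3 positive, with a median of -0.47. Among all 34365 probe sets 16561 were negative. Gbp2b, Gbp3, Gbp5, Gbp7, Irgm1, Igtp, Irf1 and Irf8 were at -1.24 to -0.43. Ticam1 was at -0.14, Hmgb1 at -0.07, Irf2 at 0.11, Cd14 at 0.12 and Ifnar1 at 0.19. Guanylate-binding proteins coat bacteria in the cytosol and bring caspase-11 to them, and IRF1 and IRF8 are transcription factors that act on interferon-induced genes. Gbp2b was 7.25, 7.04, 7.28, 6.52 and 6.76 in LysMCre and 5.71, 5.34, 6.05 and 5.82 in LysMCre;Arntfl/fl macrophages. It was 2.36-fold lower (log2 fold change -1.24 with a standard error of 0.18 and an adjusted p of 0.0330 in limma) with a gap of 0.46, and kept the call without LysMCre replicate 4 or without LysMCre;Arntfl/fl replicate 1 but lost it in the other 7 fits without 1 array (highest adjusted p 0.110, without LysMCre;Arntfl/fl replicate 4) as well as with the neutrophil covariate (-0.90, adjusted p = 0.533). Gbp3 (-0.76), Gbp7 (-0.73), Irf8 (-0.55) and Irf1 (-0.51) did not overlap between the genotypes either and were not called, with adjusted p between 0.0696 and 0.0947 from limma. With the neutrophil covariate Gbp3 was at -0.56 (-1.27 to 0.16) and Gbp7 at -0.56 (-1.25 to 0.14). Irf8 was then at -0.52 (-1.03 to -0.01) and Irf1 at -0.49 (-0.94 to -0.05). Casp4 itself, on which these proteins act, was at 0.06. The letters GAAANNGAAA, typical of sites bound by interferon regulatory factors, were in 3.44% of all promoter windows, and in 0 of the 13 windows of the 10 genes. Among the pathway genes they were in windows of Gbp2, Gbp2b, Gbp3, Gbp5, Gbp7, Irgm1, Igtp, Irf2, Ifi205, Trim30a and Myd88. Of these, Irf2 (0.11) and Myd88 (0.36) had positive log2 fold changes, Gbp2 had no probe set of its own, and the others were negative. The letters were absent from windows of Irf8 (-0.55), Irf1 (-0.51), Tmem176b (-0.45) and Panx1 (-0.44), and from those of Nod1 (0.64). The pathway windows were not set against the share of all windows. The window of Gbp2b is shown because it was the gene called, at chr3:142594597-142594896 on the plus strand with the match in capitals. The search for these letters was added after the values of Gbp2b and Aim2 had been seen.
Gbp2b: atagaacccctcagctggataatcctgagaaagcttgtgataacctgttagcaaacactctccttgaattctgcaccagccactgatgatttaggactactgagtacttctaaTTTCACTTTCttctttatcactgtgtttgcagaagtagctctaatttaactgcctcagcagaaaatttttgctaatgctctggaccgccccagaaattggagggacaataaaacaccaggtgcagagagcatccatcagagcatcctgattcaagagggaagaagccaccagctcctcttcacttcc
The match began 137 bases before the start, on the minus strand.

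Genes that restrain inflammasomes or repair the membrane had no common direction. Of 18 measured, 11 were positive and 7 negative (median 0.04), and none was called. Tmem176b, which encodes an ion channel of the endolysosome that limits NLRP3 in mouse cells, was 12.01, 12.23, 12.01, 12.00 and 11.97 in LysMCre and 11.83, 11.57, 11.47 and 11.48 in LysMCre;Arntfl/fl macrophages. The groups did not overlap (log2 fold change -0.45 with a standard error of 0.10 and an adjusted p of 0.0862 in limma), and with the neutrophil covariate the value was -0.24. Nt5e, which encodes CD73, the ectoenzyme that makes adenosine, was at 0.65 on the log2 scale (adjusted p = 0.314 from limma) and Nlrc3 at 0.45 (adjusted p = 0.228). With the neutrophil covariate they were at 0.36 and 0.25. Trim30a, an interferon-inducible gene whose product restrains NLRP3 in mice, was at -0.65 (adjusted p = 0.303 from limma), and at -1.36 with the neutrophil covariate. Of all 6 groups, the plot by role shows the one for lipopolysaccharide sensing farthest from 0.

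**Figure D4:**
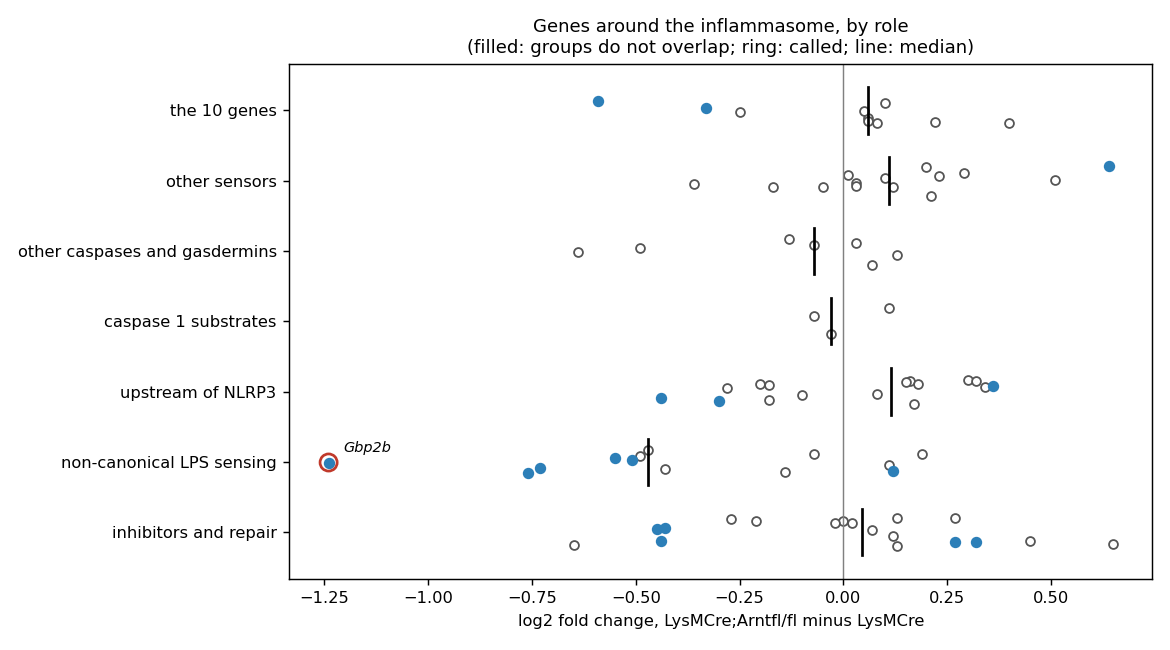
Log2 fold changes of LysMCre;Arntfl/fl over LysMCre macrophages (x axis) for the 10 genes and the 71 measured genes of the 6 groups by role (rows), with 1 point per gene, spread vertically for legibility. Filled points are genes whose genotypes do not overlap, the red ring marks the called gene Gbp2b, and black lines are medians, 0.06 for the 10 genes and -0.47 for lipopolysaccharide sensing.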

How the data were processed

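Total RNA (1.5 ng) of macrophages sorted from 9 mice was amplified, labelled with biotin and hybridised to 1 array per mouse. Per the labels and methods, the authors made log2 values by RMA (background correction, quantile normalization, summary per probe set) and analysed them with Partek (6.6 in the submitters' processing notes); the deposited log2 values, 34365 per array between 2.26 and 14.27 with medians of 5.98 to 6.04, were used as they stood. Quantile normalization hides changes shared by all genes, and low values are compressed toward background. The annotation release is not given in the sources used here. Symbols came with the probe sets, and 23521 carried 1 symbol.

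The 4 LysMCre;Arntfl/fl arrays were compared with the 5 LysMCre arrays by lmFit and eBayes of limma 3.58.1 (R 4.3.3), with genotype as the only term, on all probe sets, with Benjamini-Hochberg adjustment over all 34365. The fit was tested on simulated data. For a call the adjusted p had to be below 0.05 and the fold beyond 1.5. Values with a covariate came from the same model with that term added. The 10 genes, the 6 pathway groups and the 9 marker lists were chosen with earlier results of these data known. Named were all 10 genes, Arnt, called genes of a list and up to 4 genes of each list with the largest change. P2rx4, Ifi204, Ifi205 and macrophage markers were chosen after their values were seen. Listed genes without a probe set of their own were not analysed here. The alternatives covered the variance model, an unpaired t-test, a SAM-type d score (100 permutations), array weights, thresholds, probe sets, scaling, the replicate number, marker means as covariates and leaving out each array. The number of arrays limits the precision.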

Additional observations from a re-analysis of the deposited data

Results flagged for a closer look

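In 70 groups of 4 or 5 arrays tested, 6 had 1 array far from the rest by Dixon's criterion, which by chance flags about 1 in 20 groups. Among the 10 inflammasome genes it was P2rx7 alone, with 10.32 in LysMCre;Arntfl/fl replicate 2 against 10.06 to 10.10 in the other 3 arrays of that genotype. In LysMCre, Nod1 was 8.80 in replicate 3 against 9.26 to 9.44, Irf8 was 10.21 in replicate 2 against 9.81 to 9.88, and Tmem176b was 12.23 in replicate 2 against 11.97 to 12.01. In LysMCre;Arntfl/fl, Il1b was 13.46 in replicate 4 against 13.37 to 13.38, and Txn1, the gene of the redox protein thioredoxin, was 9.58 in replicate 1 against 10.13 to 10.14.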

How the results depend on the processing

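None of the 10 genes was called under any alternative except an unadjusted p with no fold threshold, under which 3 were. Beyond 1.2-fold stood 5 genes with the neutrophil markers and 5 with the macrophage markers as a covariate, and 3 to 5 without 1 array (5 without LysMCre replicate 1), against 3. The median log2 fold change was 0.04 to 0.09 without 1 array. Arrays with the same replicate number did not vary together, and with the replicate block 0 genes were called, 3 were beyond 1.2-fold and the median was 0.05. The sign turned for Gsdmd with its other probe set (-0.02), for Il1b after a further quantile normalization (0.00), for Casp1 with the neutrophil covariate (-0.27), the macrophage covariate (-0.06), without LysMCre replicate 1 (-0.05) or LysMCre;Arntfl/fl replicate 4 (-0.01, within -0.05 to 0.09 over all fits without 1 array), for Nlrp1a (0.11) and Nlrp6 (-0.41) with the neutrophil covariate, for Nlrc4 without LysMCre replicate 4 (-0.05, otherwise up to 0.13) and for Il18 without LysMCre;Arntfl/fl replicate 2 (0.07, otherwise down to -0.16). The call of Gbp2b was lost with the t-test (adjusted p = 0.161), the replicate block (0.112) and the macrophage covariate (0.122). Among other fits, the call of Arnt was lost with the t-test (adjusted p = 0.107) and with the neutrophil covariate, under which no probe set was called. The Arnt call was also lost without LysMCre replicate 3 or 5 or LysMCre;Arntfl/fl replicate 2, 3 or 4 (highest adjusted p 0.0883 from limma). Over all alternatives the log2 fold change lay between -1.35 and -0.90 for Gbp2b and between -0.70 and -0.58 for Arnt. Among all probe sets, calls numbered 49 higher and 52 lower, against 74 and 77 with the SAM-type score, 1 and 3 with the t-test, 87 and 80 with array weights, 98 and 106 among brighter probe sets, 3 and 2 with the replicate block, 0 and 0 with the neutrophil covariate, 1 and 1 with the macrophage covariate, and from 0 and 1 (without LysMCre replicate 5) to 74 and 75 (without LysMCre replicate 4) in fits without 1 array. The causes were not tested.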
